A study of Mus musculus with 28 samples.

Results

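The ageing testis of fully fed male C57BL/6 mice was described by comparing young with old animals. The samples were the arrays whose title gives testis and the ad libitum (AL) diet, 8 of the 28 arrays of the series. Young testes were those of 1 and 6 months (4 arrays) and old testes those of 16 and 24 months (4 arrays), with 2 animals at each age and 1 animal on each array. The series also holds 6 testes of calorie-restricted (CR) males of the same strain, aged 6, 16 and 24 months, and 14 ovary arrays. Of these, the 8 AL ovaries were compared here, from females of the same strain with 2 animals each at 1, 6, 16 and 24 months. The CR ovaries, aged 6, 16 and 24 months, entered only the shift between array versions. RNA of the whole organ was labelled with Cy3 (green), and a common reference RNA pooled from cultured mouse cell lines was labelled with Cy5 (red). For the AL testes of 1 month the source names give 1 month and 10 days for replicate 1 and 1 month and 14 days for replicate 2. They give 5 months and 24 days for 6-month replicate 1, and 2 years and 3 days for 24-month replicate 2. Both AL testes of the 16-month group have an age of 1 year and 3 months there. The CR testes titled 16 months also have 1 year and 3 months there, those titled 24 months 1 year and 10 months, and those titled 6 months 5 months and 27 days and 6 months and 6 days. For the AL ovaries the source names give 17 days for 1-month replicate 1 and 1 year for 16-month replicate 1. They give 1 year and 3 months for 16-month replicate 2, and 1 year, 11 months and 9 days for 24-month replicate 2. Replicate numbers are the order of the arrays in the series.

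The testis makes sperm in seminiferous tubules, where spermatogonia divide, spermatocytes pass through meiosis and round spermatids elongate into sperm whose DNA is packed by protamines. Sertoli cells nurse the germ cells inside the tubule. Between the tubules lie Leydig cells, which make testosterone from cholesterol, together with vessels, macrophages and few lymphocytes.

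Each value is the log2 ratio of testis to reference after background correction and normalization within the array, and a difference is old minus young. The brightest probe stood for each gene, and probes to which no name could be given were each counted singly. This gave 38551 genes tested, of which 14068 had a name. The median Cy3 signal was 1.63 to 1.69 times the local background on the young arrays. On the old arrays this ratio was 1.5 on both of 16 months, and 1.51 and 1.6 on those of 24 months. All 8 arrays were extracted on the same day in the order of age, so that array order and age cannot be told apart.

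The defining markers of the testis were present on all 8 arrays. Sycp1, a protein of the synaptonemal complex that joins paired chromosomes in meiosis, had log2 ratios of 5.44 to 5.66. The acrosomal protein Acrv1 had 3.29 to 3.55, and the testis-specific phosphoglycerate kinase Pgk2 had 4.11 to 4.57. The treatment text of 1-month replicate 1 speaks of ovary, whereas its other labels say testis. Zp3, a protein of the egg coat, had ratios of -0.20 to -0.09 over the 8 arrays, and the oocyte gene Oog1 had -0.05 to 0.13. No array stood out for these egg genes. The egg marker Gdf9 lacked a value on several arrays and was not tested. The naming used here gave no probe for Zbtb16, Gfra1, Insl3, Acta2, Myh11, Crisp1, Hbb-bs, Hba-a1 or Alas2.

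Single arrays stood apart from their age class, which touches every count below. Among the 68 genes that differed at least 2-fold between the class means, 16-month replicate 2 lay nearer to the young mean than to the old mean for 51 (75%). The other 16-month testis did so for 3 (4.41%) and the 24-month testes for 0. Among the 326 genes with at least a 1.5-fold difference, 16-month replicate 2 lay nearer to the young for 158 (48.5%). In the same set, 1-month replicate 1 lay nearer to the old for 130 (39.9%), against 3.07% to 13.2% for the other young arrays. The SD over genes of the difference between the animals of an age was 0.186 at 1 month, 0.236 at 6 months, 0.158 at 16 months and 0.138 at 24 months. More than 2-fold differences between those animals numbered 119, 221, 94 and 8 genes in the same order.

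Old and young AL testes differed in few genes that passed the test, and the 3 that did were all higher in old age. They were Ror2, a receptor tyrosine kinase-like protein that binds Wnt5a, the zinc finger protein Zfp667 and the unnamed probe Z00057813-1. The question was which genes change with age in the male gonad on a full diet. A gene was called when its Benjamini-Hochberg FDR in limma was at most 0.1, its change was at least 1.5-fold, and age had a p under 0.05 when the 14 testis arrays were regressed on age and diet. By this rule 3 of 38551 genes were called (0.00778%), 3 of them higher in old testes (0.00778%) and 0 lower (0%). At an unadjusted p under 0.05 in limma there were 5905 genes (15.3%), 3199 of them higher (8.3%) and 2706 lower (7.02%). An FDR of at most 0.1 was reached by 18 genes, of which 5 also changed at least 1.5-fold. The regression removed Zbtb7a, a transcriptional repressor that was higher by 0.59 (p for age 0.203), and the unnamed probe Z00071480-1, which differed by -0.59 (p for age 0.0594). Over all genes the median log2 difference was -0.0043, and 47.8% of genes were higher in old testes. Over the genes with a name the median was -0.00987, and 45.7% were higher.

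Ror2 had log2 ratios of -0.60 and -0.42 in the 1-month testes and -0.61 and -0.18 in the 6-month testes. It had 0.56 and 0.46 at 16 months and 0.62 and 0.53 at 24 months. All 4 old testes lay above all 4 young ones, and the old values lay within a narrower range than the young. Ror2 rose by 0.99 on the log2 scale (standard error 0.09, adjusted p = 0.0558 in limma).

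Zfp667 had 0.52 and 0.29 at 1 month, 0.32 in both testes of 6 months, 1.10 and 0.98 at 16 months, and 1.04 and 0.87 at 24 months. The groups did not overlap, and the young testis nearest to the old was 1-month replicate 1. Zfp667 rose by 0.63 (standard error 0.07, adjusted p = 0.0606).

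Probe Z00057813-1, for which no gene name was found, had 1.47, 1.39, 1.58 and 1.26 in the young testes and 2.13, 2.11, 2.15 and 2.22 in the old. The old testes lay close together and above every young one. Its value rose by 0.73 (standard error 0.07, adjusted p = 0.0558).

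**Figure D1:**
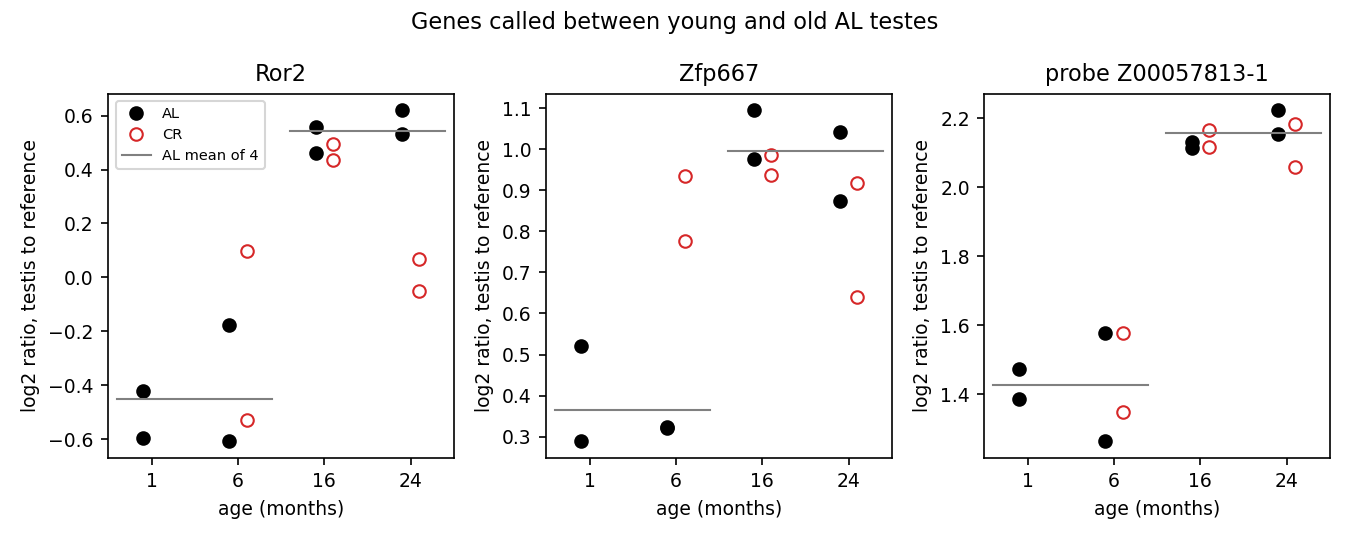
Log2 ratio of testis to reference (vertical axis) by age in months (horizontal axis) for Ror2, Zfp667 and probe Z00057813-1. Each point is 1 animal, filled for AL and open for CR, and the lines are the means of the 4 young and the 4 old AL testes. For Ror2 the young AL testes lie between -0.61 and -0.18 and the old AL testes between 0.46 and 0.62.

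The number of called genes depended on single arrays. It was 159 without 1-month replicate 1, 152 without 16-month replicate 2, and 23 without 6-month replicate 2, and each of these sets holds all 3 genes. It was 3 without 6-month replicate 1, where only probe Z00057813-1 of the 3 stayed called. It was 0 in limma without 1-month replicate 2, 16-month replicate 1, 24-month replicate 1 or 24-month replicate 2, where 4325, 4915, 4954 and 4203 genes had an unadjusted p under 0.05. Of the genes called without 16-month replicate 2, 106 were higher and 46 lower. Without 1-month replicate 1, 153 were higher and 6 lower, and 14 genes were in both sets. The count was 0 with the normalized signals of the scanner software (5473 genes at an unadjusted p under 0.05 in limma) and 1 (Ror2) with the deposited values. Without background correction 4 other genes were called, among them Malat1 and 1700029N11Rik. There Ror2 (0.51, adjusted p = 0.0243), Zfp667 (0.40, adjusted p = 0.047) and probe Z00057813-1 (0.29, adjusted p = 0.0343) passed the FDR and missed only the fold criterion. The count was 113 with an error variance not below a moving average and p from the normal distribution. With the same error variance and p from t it was 0, where 1684 genes had an unadjusted p under 0.05.

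Of the genes with a name, 10 with the largest differences upward and 10 with the largest downward were taken, among those with an unadjusted p under 0.05 and with all 4 old testes on the same side of all 4 young ones. Over all genes, 1488 had every old testis above every young one (3.86%) and 1818 had every old testis below (4.72%). The groups of these 20 genes do not overlap because the rule asks for it. Values without 16-month replicate 2 are given below because that testis stood at the young level for many of them, so their small adjusted p follow in part from that choice. Ror2 was the only one of the 20 that was called, and the others are given by their values.

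The largest difference was that of 1700084F23Rik, a gene known from cDNA clones. Its log2 ratios were -0.06, -0.09, -0.08 and -0.10 in the young testes. In the old testes they were 3.31 and -0.02 at 16 months and 3.29 and 2.83 at 24 months. Thus 3 old testes were far above the young, whereas 16-month replicate 2 was at the young level. The difference of the means was 2.44 (standard error 0.68, adjusted p = 0.183), and without 16-month replicate 2 it was 3.23 (adjusted p = 5.78e-05). With each of the 8 arrays left out in turn it was 2.12 to 3.23.

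Snhg3, which hosts small nucleolar RNAs in its introns, had -1.89, -1.97, -2.05 and -2.05 in the young testes. It had 0.28, -1.56, 0.75 and 1.12 in the old. Again 16-month replicate 2 was near the young, and the difference of 2.14 (standard error 0.51, adjusted p = 0.162) was 2.71 without it (adjusted p = 0.000877) and 1.81 to 2.71 over all left-out arrays.

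Tubb6, a beta-tubulin, had -3.71, -3.46, -3.49 and -3.31 in the young testes and -1.06, -3.28, -0.87 and -0.86 in the old. The split followed the same animals. Its difference was 1.98 (standard error 0.51, adjusted p = 0.168), 2.56 without 16-month replicate 2 (adjusted p = 8.32e-05), and 1.76 to 2.56 over all left-out arrays. Cachd1, a membrane protein related to subunits of calcium channels, had 0.17 to 0.27 in the young, 0.30 in 16-month replicate 2 and 1.45 to 1.73 in the other old testes.

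Not all of these genes followed that split. The values of 1700029N11Rik were 1.58 to 1.71 in all 4 old testes and -0.19, -0.12, -0.10 and 0.99 in the young, so that here 6-month replicate 2 was the one apart. Its difference was 1.5 (standard error 0.24, adjusted p = 0.117). Malat1, a long nuclear non-coding RNA, had -2.80, -3.49, -3.77 and -3.02 in the young and -1.82, -2.01, -2.41 and -2.17 in the old, a difference of 1.17 (standard error 0.22, adjusted p = 0.135). Both 16-month testes were high for this RNA.

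Cdc25a, a phosphatase that drives the cell cycle, had 1.5 and 0.97 at 1 month, 2.2 and 2.09 at 6 months, 2.97 and 2.94 at 16 months, and 2.69 and 2.62 at 24 months. Its values thus differed more between the pair of young ages than between the pair of old ages. Fetub, a secreted protease inhibitor, had -1.21 and -0.84 at 1 month, -0.30 and -0.20 at 6 months, 0.03 and 0.41 at 16 months, and 0.65 and 0.46 at 24 months. The differences between the classes were 1.12 for Cdc25a (standard error 0.26, adjusted p = 0.159) and 1.03 for Fetub (standard error 0.23, adjusted p = 0.159). Ankrd26, a protein with ankyrin repeats, was higher by 1.05 (standard error 0.18, adjusted p = 0.133).

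Among the largest differences downward were the alpha-defensins Defcr14 and Defa3, which belong to a family of antimicrobial peptides of the gut. Defcr14 had 1.83, 2.68, 1.80 and 3.00 in the young testes and 0.88, 1.5, 0.31 and 0.38 in the old, a difference of -1.56 (standard error 0.35, adjusted p = 0.159). Defa3 had 1.72, 2.55, 1.74 and 2.94 in the young and 0.88, 1.46, 0.41 and 0.45 in the old. The probes gave nearly the same values on each array, and members of this family with near-identical sequences cannot be told apart by them.

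Adgrg7, an adhesion G protein-coupled receptor, had 0.89, 1.25, 1.30 and 1.53 in the young and 0.02, 0.81, 0.08 and 0.00 in the old. Ttc22, a protein with tetratricopeptide repeats, had 1.14, 1.10, 0.84 and 0.92 in the young and -0.05, 0.49, -0.04 and -0.07 in the old, a difference of -0.92 (standard error 0.13, adjusted p = 0.115). In both genes 16-month replicate 2 held the highest of the old values.

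The kinase Irak4, which acts below the Toll-like receptors, had 1.57 to 1.98 in the young testes and 0.76, 1.52, 0.49 and 0.59 in the old. Alad, an early enzyme of haem synthesis, had 0.23, 0.40, 0.12 and 0.74 in the young and -0.34, 0.04, -0.84 and -0.87 in the old, a difference of -0.87 (standard error 0.22, adjusted p = 0.166). The J-domain protein Dnajc25 differed by -0.84, the pheromone receptor gene Vmn2r29 by -0.87 and 1500015A07Rik by -0.80. Vmn2r29 had 2.78, 1.14, 2.06 and 0.98 in the young testes, which was a wider spread than the 0.77 to 0.95 of the old, and its difference was -1.12 to -0.52 with single arrays left out.

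Without 16-month replicate 2, 7 of the 10 genes with the largest differences upward and 6 of the 10 downward were called, where 152 of all 38551 genes were. Without 1-month replicate 1, 6 of the 20 were called, where 159 of all 38551 were. The 20 were chosen for large differences without overlap on these arrays, which favours a high share. Why these testes lay apart from their class was not tested. For 16-month replicate 2 a mixed-up sample, another genetic background and ordinary variation between animals cannot be told apart from the files, which limits what the differences of 1700084F23Rik, Snhg3, Tubb6 and Atg4c show.

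**Figure D2:**
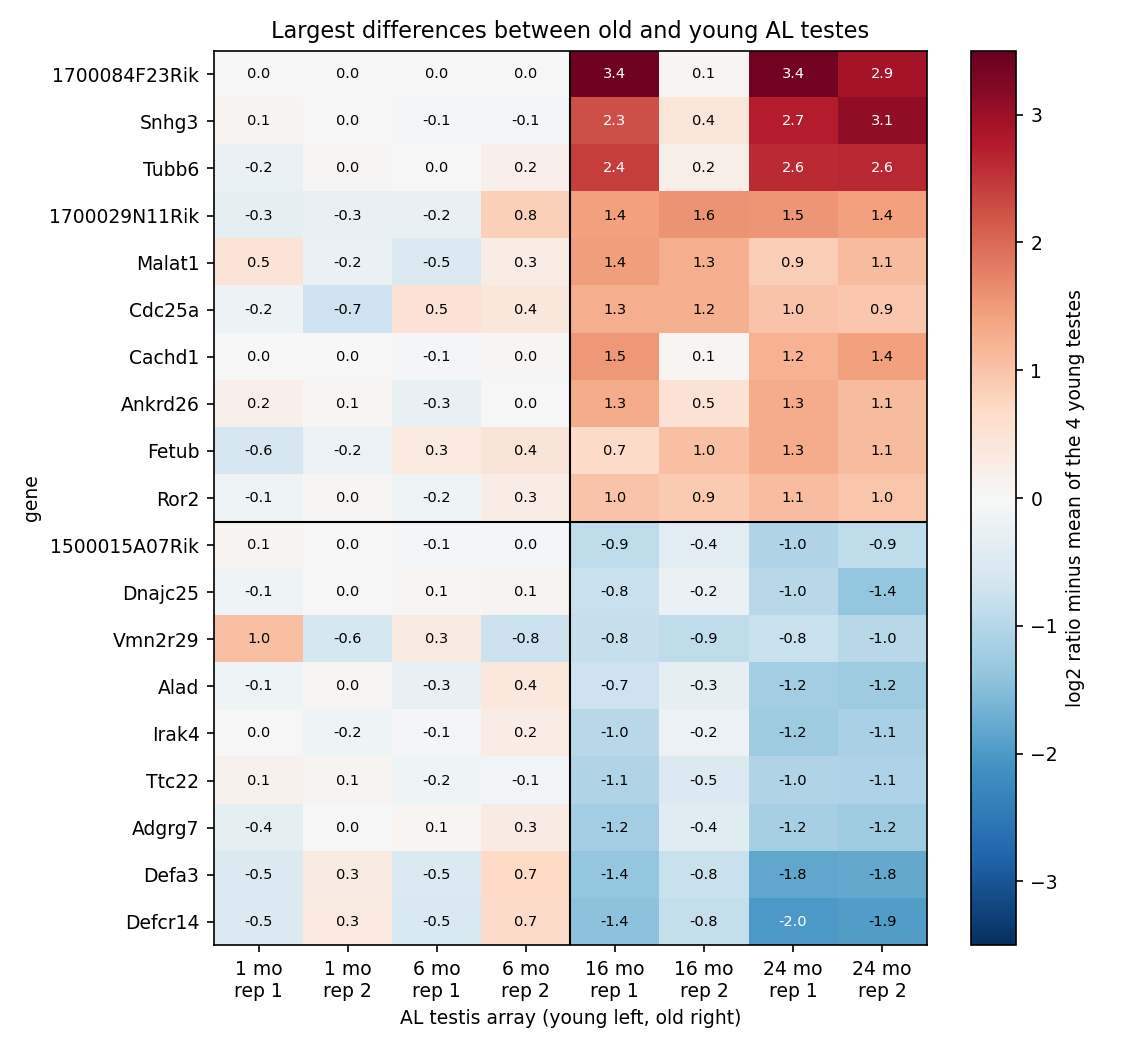
Log2 ratio of testis to reference less the mean of the 4 young AL testes (colour, and printed in each field) for the 10 genes with the largest differences upward and 9 of those downward (rows), on the 8 AL testis arrays in order of age (columns). For 1700084F23Rik, Snhg3, Tubb6 and Cachd1 the testis labelled 16 months, replicate 2, lies near the young testes, whereas for Ror2 all 4 old testes lie apart from the young.

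Lists of genes for cell types and processes were described by counts and medians beside those of all genes, and no list was tested. No member of any of the 32 lists was called for the age effect, against 0.00778% of all genes. The RNA came from whole testes, so fewer cells of a type and less RNA per cell cannot be told apart.

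Among germ cell genes the round spermatid list was mostly lower in old testes. Of its 19 measured genes 17 were lower and 2 higher, with a median log2 difference of -0.10 against -0.0043 for all genes, and the median was negative under each signal tried. The acrosomal protease Acr differed by -0.10 (standard error 0.04), and by 0.06 at its other probe, and the spermatid kinase Tssk1 by -0.17 (standard error 0.05). The acrosomal gene Acrv1 differed by -0.10 with the ratio and by 0.05 with the Cy3 channel alone. Every old testis lay below every young one for 1 gene of the list and above for 1, against 4.72% and 3.86% of all genes. The list of sperm ion channels and motility had 13 of 19 genes lower, with a median of -0.07 that was -0.01 with the Cy3 channel alone. Its axonemal dynein Dnah1 had 2.52 to 2.59 in the young and 2.35 to 2.45 in the old testes, a difference of -0.14 (standard error 0.04, adjusted p = 0.175).

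Of 21 genes of meiosis 14 were lower, with a median of -0.05, also without the saturated Ldhc, which left 14 of 20 lower. The median of the 21 was -0.00 with the Cy3 channel alone and -0.09 to -0.01 with single arrays left out. The recombinase Dmc1, which pairs homologous strands in meiosis, had 1.90, 1.72, 1.59 and 1.62 in the young testes and 1.36, 1.21, 1.38 and 1.34 in the old. The groups did not overlap, and the difference was -0.38 (standard error 0.07, adjusted p = 0.135). Its less bright probes differed by -0.26 and -0.16. Sycp3, another protein of the synaptonemal complex, differed by -0.17 (standard error 0.08, and -0.19 to -0.09 with single arrays left out). The spermatogonial list had 10 of 18 genes lower (median -0.03), among them Stra8, which is needed to enter meiosis, at -0.30 (standard error 0.10, adjusted p = 0.234). The germ cell helicase Ddx4 differed by -0.38 with the ratio, by 0.14 with the Cy3 channel alone and by -0.04 at its other probe. The piRNA list had 7 genes higher and 7 lower, and its median of -0.02 turned positive with the deposited values (0.05) and with the Cy3 channel alone (0.14).

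Of the protamine and elongating spermatid list, Prm1, Prm2, Prm3, the transition protein Tnp1 and the linker histone H1f7 were saturated in Cy3 on all 8 arrays. So was the meiotic lactate dehydrogenase Ldhc, and no fold change is given for these genes. Of the 13 members left, 3 were higher and 10 lower, with a median of -0.07, against 8 and 10 of 18 with a median of -0.01 when the saturated genes were counted. The sperm mitochondrial protein Smcp had 5.72 to 5.86 in the young testes and 5.55 to 5.57 in the old, a difference of -0.23 (standard error 0.04, adjusted p = 0.117), and with the Cy3 channel alone the difference was 0.09.

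Leydig cell genes were mostly lower in the old testes. Of 18 measured genes 13 were lower, with a median of -0.06, and every old testis lay below every young one for 2 of them, against 4.72% of all genes. Cyp11a1, the side-chain cleavage enzyme that begins steroid synthesis, had 1.48, 1.78, 1.56 and 2.46 in the young testes and 1.44, 0.85, 0.95 and 1.01 in the old. The classes did not overlap, although 16-month replicate 1 lay close to the lowest young value. The difference was -0.76 (standard error 0.22, adjusted p = 0.194). Cyp17a1, which makes the androgen precursors, had 3.02, 3.51, 2.96 and 3.64 in the young and 3.07, 2.68, 2.53 and 2.49 in the old, with 16-month replicate 1 inside the young range. Its difference was -0.59 (standard error 0.19, adjusted p = 0.213), and -0.73 at its other probe. Star, which carries cholesterol into mitochondria, had 2.50, 3.08, 2.86 and 3.66 in the young and 2.84, 2.98, 2.53 and 3.00 in the old, and the classes overlapped.

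The testis 6-month replicate 2 was high in several somatic lists. The mean log2 ratio of the Leydig list was 1.20 in that testis, against 0.75 to 0.91 in the other young and 0.67 to 0.86 in the old testes. Its summed Cy3 signal there was 3.71e+04, against 1.76e+04 to 3e+04 on the other 7 arrays, and its brightest probe was that of Hsd3b6. For the Sertoli list the mean was 1.25 in 6-month replicate 2, 0.70 to 0.87 in the other young and 0.73 to 1.11 in the old. Of 22 Sertoli genes 14 were lower in old testes (median -0.06), and the median ranged from -0.12 to 0.03 with single arrays left out. Sox9, a transcription factor that sets Sertoli cell fate, differed by -0.04 (standard error 0.16), and Fshr, the receptor of follicle-stimulating hormone, by -0.11 (standard error 0.04). The sign for Sox9 depended on single arrays, with -0.15 to 0.12 when 1 was left out. With single arrays left out, the Leydig median ranged from -0.11 to -0.02.

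The endothelial list had 10 of 14 genes lower (median -0.06), with the junction protein Cdh5 at -0.16 (standard error 0.05) and the adhesion molecule Pecam1 at 0.13 (standard error 0.07). For peritubular myoid and smooth muscle genes 6 were higher and 5 lower, with a median of 0.00 whose sign changed with the scaling.

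Genes of the immune system were more often higher than lower in the old testes, by small amounts. Of 25 chemokines 21 were higher, with a median of 0.09, and of 20 interferon response genes 18 were higher, with a median of 0.09. Both medians stayed positive under each signal tried, from 0.04 to 0.10 for the chemokines and from 0.03 to 0.09 for the interferon genes. Cxcl10, a chemokine that interferon induces, had -2.64, -2.53, -2.52 and -2.30 in the young testes and -2.16, -2.24, -2.19 and -2.14 in the old. The groups did not overlap, and the difference was 0.31 (standard error 0.07, adjusted p = 0.159). Ccl3 was higher by 0.17 (standard error 0.05, adjusted p = 0.187). Oas2, which senses double-stranded RNA, was higher by 0.28 (standard error 0.07, adjusted p = 0.16) but differed by -0.06 at its other probe. The young testis 6-month replicate 2 was at the level of the old, with list means of -1.18 for the interferon genes and -0.65 for the chemokines. The other young testes had -1.45 to -1.39 and -0.85 to -0.76, and the old -1.33 to -1.18 and -0.71 to -0.57. Every old testis lay above every young one for 2 chemokines and 2 interferon genes, against 3.86% of all genes.

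Of 12 MHC genes 10 were higher, with a median of 0.09 that was 0.01 with the Cy3 channel alone. Their mean in 6-month replicate 2 (-0.45) was above those of 3 of the 4 old testes. The class II gene H2-Eb1 differed by -0.16 (standard error 0.07). Of 16 complement genes 12 were higher (median 0.03). Among leukocyte lists, Ptprc, the CD45 antigen of all leukocytes, had -2.96, -2.78, -2.79 and -2.86 in the young and -2.63, -2.55, -2.46 and -2.48 in the old testes. The difference was 0.32 (standard error 0.05, adjusted p = 0.133). Of 17 genes of B and plasma cells 10 were higher with a median of 0.07, which became -0.02 with the Cy3 channel alone. Every old testis lay above every young one for 3 of them, against 3.86% of all genes, including Jchain, the joining chain of secreted antibodies, which was higher by 0.25 (standard error 0.07, adjusted p = 0.174). The T cell list had 9 of 14 genes higher, with Cd3d at 0.21 (standard error 0.08) and Cd3e at -0.14 (standard error 0.04), and its median of 0.02 was negative in the signals of the scanner software (-0.02).

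Macrophage genes had 12 of 19 higher with a median of 0.07, and -0.02 without the 1-month arrays. The mean log2 ratio of this list was -0.43 and -0.36 at 1 month, -0.31 and -0.01 at 6 months, -0.32 and -0.43 at 16 months, and 0.15 and -0.10 at 24 months. Young and old overlapped, and the highest values were those of 24-month replicate 1 and 6-month replicate 2. The colony-stimulating factor receptor Csf1r had the same mean in both classes (difference 0.00, standard error 0.12). Mast cell genes had 6 higher and 5 lower of 11.

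Markers of other tissues gave unequal values, low for some genes and high on all 8 arrays for the fat gene Adipoq. The epididymal gene Lcn5 had ratios of -0.13 to 0.11, and of 9 epididymal genes 6 were lower (median -0.05). Another member of that list, the beta-defensin Defb15, was higher by 0.56 (standard error 0.22, adjusted p = 0.278), with 0.93 and 1.05 at 24 months against -0.09 to 0.37 in the other testes. Spink8, also of that list, differed by -0.96 (standard error 0.46, adjusted p = 0.374), and Adam7 by -0.23 (standard error 0.19). Adam7 was well above background on only 5 arrays. Its ratios were -0.11 to 0.83 with a mean of 0.05, and the highest was that of 1-month replicate 2, which weighs heavily in the difference. The fat list had 9 of 12 genes lower, with a median of -0.10 that was -0.23 to -0.04 with single arrays left out. Adiponectin (Adipoq), the hormone of fat cells, had ratios of 3.22 to 3.78 and differed by -0.23 (standard error 0.09, and -0.30 to -0.15 with single arrays left out). The mean of the fat list varied between animals, from 0.67 and 1.32 at 1 month and 0.93 and 1.6 at 6 months to 1.37 and 1.09 at 16 months and 0.63 and 1.02 at 24 months. Its summed Cy3 signal was 4.37e+03 to 9.93e+03, with the probe of Cidea the brightest. The part of fat in the gene differences was not tested. Of 7 blood genes 6 were lower (median -0.05).

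**Figure D3:**
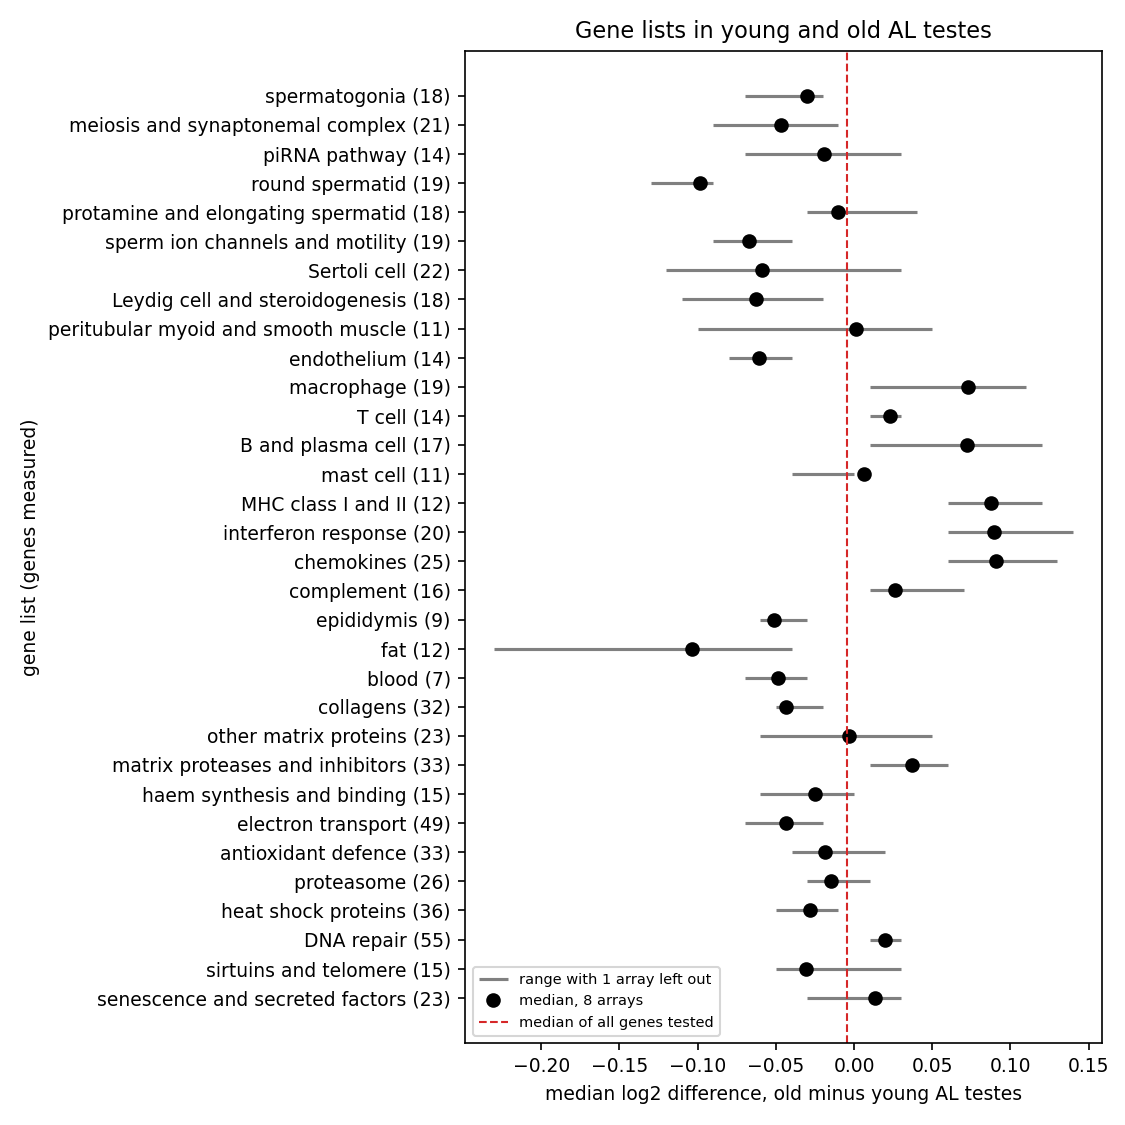
Median log2 difference, old minus young AL testes (horizontal axis), of each gene list (vertical axis, with the number of genes measured). Points are the medians over all 8 arrays, grey lines the range with 1 array left out in turn, and the dashed line is the median of all genes tested (-0.0043). Round spermatid genes (-0.10) lie lowest among the germ cell lists, and the chemokine (0.09), interferon (0.09) and MHC (0.09) medians lie highest, the MHC median being 0.01 with the Cy3 channel alone.

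Matrix genes went both ways. Of 32 collagens 19 were lower (median -0.04, and 0.00 with the Cy3 channel alone), with Col8a2 at -0.16 (standard error 0.04, adjusted p = 0.159) and Col1a1, a chain of type I collagen, at -0.24 (standard error 0.16, and -0.35 to -0.07 with single arrays left out). Other matrix proteins had 11 higher and 12 lower, with a median of 0.00 that was -0.08 in the signals of the scanner software, -0.09 with the deposited values and 0.02 without background correction. Nid2, a basement membrane protein, had -0.56 to -0.65 in the young testes and -0.25, -0.50, -0.30 and -0.19 in the old. Its groups did not overlap, and the difference was 0.30 (standard error 0.06, adjusted p = 0.154). The proteoglycan lumican (Lum) differed by -0.22 (standard error 0.06). Of 33 matrix proteases and inhibitors 21 were higher, with a median of 0.04 that was -0.03 in the signals of the scanner software. Mmp24, a membrane-bound matrix metalloproteinase, had 0.36, 0.44, 0.46 and 0.56 in the young and -0.06, 0.00, -0.08 and 0.05 in the old. The classes were well separated. It differed by -0.48 (standard error 0.05, adjusted p = 0.0606), which passed the FDR but not the fold criterion.

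Among metabolic lists, electron transport had 37 of 49 genes lower with a median of -0.04, the same sign under each signal tried. Ndufa12, a subunit of complex I, differed by -0.22 (standard error 0.08, adjusted p = 0.236). Haem synthesis and binding had 9 of 15 lower (median -0.03), heat shock proteins 21 of 36 lower (median -0.03), and the spermatid J-domain protein Dnajb13 differed by -0.28 (standard error 0.07, adjusted p = 0.166). The proteasome list had 16 of 26 genes lower and antioxidant defence 19 of 33, with medians of -0.01 and -0.02. These medians were 0.02 for the proteasome without the 1-month arrays and 0.00 for antioxidant defence without background correction. Gclm, the modifier subunit of glutathione synthesis, was higher by 0.12 (standard error 0.03) but differed by -0.03 with the Cy3 channel alone.

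Maintenance genes were about evenly divided. DNA repair had 30 higher and 25 lower of 55, with a median of 0.02 that was -0.02 in the signals of the scanner software. The checkpoint kinase Chek1 was higher by 0.24 (standard error 0.06, adjusted p = 0.166). Of 15 sirtuin and telomere genes 7 were higher and 8 lower. The telomere protein Terf2 had 0.61, 0.19, 0.10 and 0.06 in the young and 0.86, 0.71, 0.56 and 0.71 in the old testes, a difference of 0.47 (standard error 0.12, adjusted p = 0.168). The value of 1-month replicate 1 was within the old range. Senescence genes had 12 higher and 11 lower of 23 with a median of 0.01 that changed sign with the scaling. The cell cycle inhibitor Cdkn2a, a marker of senescence, differed by -0.04 (standard error 0.06), and by 0.03 without background correction.

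The study plots 17 genes of testis ageing as examples of functional categories, and these are not its full lists. They were picked from the very arrays used here, which leaves their direction without independent evidence. At the study's probes 15 of the 17 were tested, and 0 of these were called by the rule used here, against 0.00778% of all genes. The study's own test differed. It used an error variance not below a moving average, its own normalization, only genes with symbols, and the probe with the most significant change. With such a variance and p from the normal distribution, 113 of 38551 genes were called here. Atg4c, Fetub, Npr3, Alad and Trgv6 were among them. The 5 of immune response were all higher in the mean of the old testes. For Ly6d the classes overlapped, with the highest value in the young 6-month replicate 2 (0.90), against -0.05 to 0.82 in the old testes. Its difference was 0.85 (standard error 0.48, adjusted p = 0.443). Nfkbiz, a regulator of NF-kappa-B, had -3.19, -3.17, -3.45 and -3.34 in the young and -2.70, -2.89, -2.77 and -2.71 in the old. The classes did not overlap, and the difference was 0.52 (standard error 0.07, adjusted p = 0.115). Igk, the kappa light chain of antibodies, had 0.30 to 0.42 in the young and 1.35, 0.37, 2.12 and 2.16 in the old. The testis at the young level was 16-month replicate 2, and the difference of 1.14 (standard error 0.36, adjusted p = 0.214) was 1.51 without it (adjusted p = 0.0183). Atg4c, a protease of autophagy, had 0.40 to 0.83 in the young and 2.88, 0.74, 2.74 and 2.73 in the old, with the same testis at the young level. Its difference was 1.70 (standard error 0.44, adjusted p = 0.168), 2.21 without that testis (adjusted p = 0.000202), and 1.5 to 2.21 over all left-out arrays. For Igk and Atg4c the testis left out was the one at the young level, so the small adjusted p follow in part from that choice.

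The 6 genes of metabolism were also higher at the study's probes. Gabrd, a subunit of the GABA receptor, was higher by 0.95 (standard error 0.26, adjusted p = 0.18) and Mccc2, an enzyme of leucine breakdown, by 1.20 (standard error 0.41, adjusted p = 0.234). In both 16-month replicate 2 was at the young level. The study's probe of Alms1 was higher by 0.71 (standard error 0.19), whereas the brightest probe of this gene differed by -0.05. Npr3, a clearance receptor of natriuretic peptides, was higher by 0.60 (standard error 0.12, adjusted p = 0.152) and Clic4, an intracellular chloride channel protein, by 0.68 (standard error 0.18, adjusted p = 0.173). Alms1 had 1.39 at the study's probe in 16-month replicate 2, against 1.21 to 1.48 in the young testes. Clic4 had -0.40 in that testis, against -0.67 to -0.35 in the young.

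The genes of the matrix and of cofactors were lower. Col3a1, the chain of type III collagen, had -2.97, -3.62, -4.30 and -3.65 in the young testes and -4.20 to -4.51 in the old, a difference of -0.73 (standard error 0.24, adjusted p = 0.226). The young range reached into that of the old. Col16a1 had no value on 1 young array and was not tested. Beside Alad, Hebp1, which binds haem, differed by -0.52 (standard error 0.16, adjusted p = 0.21) and Sytl1, a protein of vesicle transport, by -0.47 (standard error 0.11, adjusted p = 0.165).

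The 2 ages within each class were compared with an error pooled over the 4 ages, and a call needed the same FDR and fold without the regression. Between 6 and 1 month 0 of 38551 genes were called by limma (0%), where 2791 had an unadjusted p under 0.05. Between 24 and 16 months 0 were called (0%), with 2601 at an unadjusted p under 0.05. Leaving out 1 array gave up to 7 calls in the younger pair, without 1-month replicate 2, where 6-month replicate 2 left out gave 3 and 6-month replicate 1 gave 1. In the older pair it gave 86 without 16-month replicate 1, 7 without 16-month replicate 2, 3 without 24-month replicate 2, and 1 without either 6-month array. The signals of the scanner software and the deposited values each gave 9 calls in the older pair.

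The widest span of age, 24 against 1 month with 2 animals each, gave 26 called genes (0.0674%), 11 higher (0.0285%) and 15 lower (0.0389%), and 4937 genes had an unadjusted p under 0.05. The largest changes were those of Cap1, which binds actin, and Srfbp1, a partner of serum response factor. Cap1 had -1.17 and -0.91 at 1 month, -1.33 and -1.42 at 6 months, -2.11 and -1.42 at 16 months, and -3.89 and -3.88 at 24 months. It fell by 2.85 (standard error 0.21, adjusted p = 0.0997), with both 24-month testes far below the rest. Srfbp1 fell by 2.48 (standard error 0.18, adjusted p = 0.0997). Cdc25a was higher by 1.42 (standard error 0.16, adjusted p = 0.0997) and Fetub by 1.58 (standard error 0.17, adjusted p = 0.0997), and both were called. Of the list members, 3 were called. The chemokine Ccl8 had 0.26 and 0.22 at 1 month, 0.91 and 1.45 at 6 months, 1.01 and 0.66 at 16 months, and 2.15 and 1.92 at 24 months. It rose by 1.79 from 1 to 24 months (standard error 0.20, adjusted p = 0.0997), although the 6-month values lay above or beside those of 16 months. The deacetylase Sirt2 had 2.61 to 2.65 in the young testes, 2.34 and 2.77 at 16 months, and 1.53 and 1.54 at 24 months. It fell by 1.10 (standard error 0.13, adjusted p = 0.0997), and its other probe differed by -0.19 between the classes. The beta-defensin Defb15, a member of the epididymal list, had -0.03 and -0.09 at 1 month, 0.11 and 0.13 at 6 months, 0.37 and 0.00 at 16 months, and 0.93 and 1.05 at 24 months. It rose by 1.05 (standard error 0.12, adjusted p = 0.0997), while the mean of the epididymal list was 0.62 and 0.59 at 24 months against 0.52 and 0.86 at 1 month. RNA from attached epididymis and from the testis itself cannot be told apart for this gene.

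These 26 calls also rested on single arrays. The count was 0 without 24-month replicate 1, 3 without 24-month replicate 2, 3 without 1-month replicate 1 and 4 without 1-month replicate 2. It was 58 without 6-month replicate 1 or 6-month replicate 2, and 167 without 16-month replicate 1 or 16-month replicate 2, arrays that enter only through the error.

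The AL change was compared with that under CR, from 6 months to the mean of 16 and 24 months, since no CR testis of 1 month was analysed here. A call needed an FDR of at most 0.1 alone. Of 38379 genes 9 had a called difference between the diets in limma (0.0235%), and 4234 had an unadjusted p under 0.05. The count was 0 with the Cy3 channel alone, 119 with the signals of the scanner software and 67 with the deposited values. Those of the 9 with a name were Zbtb7a, Topors, Prrt3, Pa2g4 and Tbc1d15. Zbtb7a was higher in old AL testes by 0.68 and differed by -0.27 under CR, a difference of 0.95 (standard error 0.10, adjusted p = 0.0516). Pa2g4, which binds RNA in growing cells, had 0.95 on AL and -0.55 under CR. Topors, a ligase for ubiquitin and SUMO, had 0.72 and -0.29, and Tbc1d15, which acts on Rab GTPases, had 0.76 and -0.45. Prrt3 had -0.27 and 0.32. The CR testes of 16 and 24 months were extracted on another day than the rest, so the day and the CR age change cannot be told apart.

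None of the 3 genes called in AL testes had a called difference between the diets. Ror2 had -0.53 and 0.10 in the CR testes of 6 months, 0.44 and 0.49 at 16 months, and 0.07 and -0.05 at 24 months. The CR testes of 24 months thus lay between the young and the old AL testes. Its change was 0.94 on AL and 0.45 under CR (adjusted p of the difference 0.484). Zfp667 had 0.78 and 0.93 in the CR testes of 6 months, above all young AL testes, and 0.94, 0.99, 0.92 and 0.64 in the older CR testes. Its changes were 0.67 and 0.02 (adjusted p = 0.177). Probe Z00057813-1 changed by 0.73 on AL and 0.67 under CR (adjusted p = 0.903).

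The uneven values seen in old AL testes also occurred among CR testes. For 1700084F23Rik the CR testes had -0.09 and -0.07 at 6 months, 1.98 and 3.12 at 16 months, and 2.43 and -0.04 at 24 months. Snhg3 had -1.87 and -1.63, then 0.18 and 1.17, then 0.26 and -1.55. Tubb6 had -3.44 and -3.16, then -0.91 and -0.92, then -1.73 and -3.12. In each of these 3 genes CR 24-month replicate 2 lay near the young testes of both diets, slightly above all of them. The other CR testis of that age lay further above.

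The count of the diet comparison moved with single arrays. It was 68 without 1-month replicate 1 or 1-month replicate 2 of the AL testes, 67 without AL 6-month replicate 1 and 2 without AL 6-month replicate 2. Without AL 16-month replicate 1, AL 16-month replicate 2, AL 24-month replicate 1 or CR 16-month replicate 2 it was 1, and without AL 24-month replicate 2 it was 4. It was 23 without CR 6-month replicate 1, 0 without CR 6-month replicate 2 or CR 16-month replicate 1, and 98 without CR 24-month replicate 1.

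The AL testis differed from the AL ovary in how genes changed between young and old. Of 34589 genes on both array versions 11355 had a called difference (32.8%), where a call needed only an FDR of at most 0.1 and no minimum fold, 6363 with a more positive change in testis and 4992 with a more negative one. In ovary itself 11550 of these genes passed the FDR between young and old, and 3426 of them also changed at least 1.5-fold. Ovary and testis arrays were never extracted on the same day, and 5 of the 8 ovary arrays were of version 2.1, so array effects and the organ cannot be told apart in the levels. These 5 cannot be spread evenly over young and old ovaries, so array version also enters the ovary change. The count was 10870 without the shift between versions and 11031 with version as a term of the fit. For Ror2 the change was -0.28 in ovary (standard error 0.13) against 0.99 in testis, a difference of 1.27 (standard error 0.17, adjusted p = 0.000549). Zfp667 had -0.34 in ovary (standard error 0.11), a difference of 0.98 (adjusted p = 0.000533), and probe Z00057813-1 had 0.03 (standard error 0.08), a difference of 0.70 (adjusted p = 0.000756). These 3 genes were selected on the same testis arrays, which favours a larger change in testis. Tubb6 had -0.74 in ovary and 1.98 in testis (difference 2.72, adjusted p = 0.00441). Of 32 genes among the called, the largest differences and the study's genes that were compared, 24 had a called difference. They were chosen for their differences on the same testis arrays, so their share cannot be set against that of all genes.

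The immune lists had larger medians in ovary than in testis. Over all genes the median was -0.02 in ovary and -0.0043 in testis, and 32.8% had a called difference between the organs. The macrophage median was 0.81 in ovary and 0.07 in testis, with 10 of 18 genes having a called difference between the organs. For B and plasma cells it was 0.59 and 0.07 with 10 of 17, for T cells 0.64 and 0.02 with 7 of 13, and for chemokines 0.37 and 0.09 with 11 of 25. Other immune lists had few called differences, with ovary medians of 0.56 for MHC genes (1 of 11), 0.20 for interferon response (2 of 20), 0.21 for complement (2 of 15) and 0.10 for mast cells (2 of 11). DNA repair genes had a median of -0.37 in ovary and 0.02 in testis, with 40 of 53 having a called difference, and the proteasome -0.55 and -0.01 with 17 of 24. The testis medians of macrophage, B cell, T cell, DNA repair and proteasome genes changed sign in at least 1 alternative, as given above.

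These comparisons rest on 2 animals at each age, and a single testis could remove all calls or add more than 100. Array order followed age, and the median Cy3 signal was less than 2 times the local background, which limits what dim probes such as that of Cxcl10 can show. Whole testes were used, so shifts between cell types and changes within a cell type were not separated. No gene name was found for 24483 of the probes tested, Z00057813-1 among them, and saturated genes such as Prm1 gave no fold change.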

How the data were processed

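RNA of the gonad (Cy3) and reference RNA (Cy5) had been hybridized to 2-colour Agilent 60-mer arrays. Per the file headers, the authors read spot intensities from the scanned images with Agilent Feature Extraction, and the deposited mean signals and median local backgrounds had not been normalized. The same files hold the signals that the scanner software had corrected for background and dye. The deposited table holds log10 values normalized by the authors, whose scale and centring are not stated. All its 25577 rows matched a probe, array differences in it correlated across genes at 0.937 to 0.986 with the scanner log ratio, and the array medians were 3.14 to 3.16 on the log10 scale.

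From the unnormalized intensities, log2 ratios were computed here with limma 3.58.1 in R 4.3.3, by normexp (offset 50) and loess within arrays. Control spots and outlier spots were left out (0.152% to 0.707% of 42034 spots), and spots of a probe were averaged. On each array 97.4% to 100% of spots were well above background in Cy3. Of 42006 probes 17308 had a gene name, 4675 by a supplementary table and 14758 by accessions of identical 60-mers looked up in the RefSeq table of assembly GRCm38.p6. The same gene was given for 97.2% of the 2125 probes named by both. Dim probes were kept. The number of arrays limits the precision.

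All comparisons used the moderated test of limma with Benjamini-Hochberg adjustment over all genes, 2-sided. The age effect followed the groups and the FDR, fold and regression criteria of the study's methods, but not its error variance, normalization or choice of probe. The ages were compared in a fit with a mean for each age, the diets in a fit with a mean for each combination with age, and the organs by an interaction contrast, with the version 2.1 ovary arrays shifted by the median difference over the 6 groups that hold both versions. The steps were tested on simulated data. Of the alternatives, other signals, probes, error variances, samples and criteria were tried, and each array was left out in turn. The lists without members saturated in Cy3 on all 8 arrays were an alternative chosen after seeing the data.

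Genes named are the called genes, the 10 largest differences in each direction among named genes with an unadjusted p under 0.05 and no overlap, the 17 genes of the study at the probe of its supplementary table, and of the lists some of the first 3 measured genes, the member with the lowest p and any member called for the age effect or between 24 and 1 month. Not all of these list members are printed, so those shown lean to a low p. Cell markers and the member of a list with the brightest probe were named for the check of the tissue. Zbtb7a and Z00071480-1 were named because only the regression kept them from the calls, and Cap1, Srfbp1, Spink8 and Adam7 for the size of their values, after these were seen. The genes called between the diets were named because they were few, after their values were seen. The members and lists were chosen with earlier results of these data known. Among the 10 largest differences downward 1 gene is not reported here.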

Additional observations from a re-analysis of the deposited data

Results flagged for a closer look

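A gap of a single testis to the nearest of its class of 4, divided by the range of the class, stood out in 12 of 145 classes tested (8.28%), where chance flags about 1 in 20 groups. These were 9 of 71 classes for genes and 1 of 64 for list means, with the rest for array measures. The genes had been picked for large differences with age, so their share is not that of genes at large. In 6 of the 12 classes the testis was 16-month replicate 2. It was the lowest old testis for 1700084F23Rik (0.857 of the range), Tubb6 (0.916), Atg4c (0.933) and Alms1 (0.894), and the highest for Adgrg7 (0.902) and Ttc22 (0.955). In the young class, 1-month replicate 1 was highest for Zfp667 (0.85) and for the share of spots well above background (0.833), and 6-month replicate 2 was highest for 1700029N11Rik (0.927) and Mccc2 (0.878). In the old class, 24-month replicate 2 was highest in the mean of the B and plasma cell list (0.875), and 16-month replicate 1 in the share of spots left out (1).

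The log2 change in AL testis less that in AL ovary was called by FDR alone for 24 of the genes described. Most of these genes were picked for large differences on the same testis arrays, which favours a larger change in testis. It was positive for Tubb6 (2.72), 1700084F23Rik (2.45), Snhg3 (1.85), Fetub (1.68), Atg4c (1.64), Cdc25a (1.53), Cachd1 (1.5), 1700029N11Rik (1.4), Mccc2 (1.29), Ror2 (1.27), Malat1 (1.27), Ankrd26 (1.16), Gabrd (0.98), Zfp667 (0.98), probe Z00057813-1 (0.70) and Npr3 (0.43). It was negative for Adgrg7 (-1.50), Defa3 (-1.42), Ttc22 (-1.14), Vmn2r29 (-1.11), Irak4 (-0.93), Mmp24 (-0.57), Dnajc25 (-0.55) and Sytl1 (-0.46). Over all genes, 11355 differed between the organs and 9 between the diets.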

How the results depend on the processing

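The age effect (3 genes called) was 0 with the normalized signals of the scanner software (5473 genes at an unadjusted p under 0.05 in limma) and 1 with the deposited value table, which holds 2 of the 3 genes. It was 0 with a variance floor and t (1684 at an unadjusted p under 0.05) and 113 with the same floor and the normal distribution. It was 64 in the fit of all 14 testis arrays, 7 without the 1-month arrays, 21 with age as a number, 5 without the regression and 12 with no minimum fold. It was the same 3 genes with the filter on dim probes, which kept 38429 of 38551 genes, and with the other choices of probe. Each of the 3 had only 1 probe tested, so another choice of probe could not change its values. With the Cy3 channel alone it was 3, with Cap2 in place of Zfp667 (0.41, adjusted p = 0.39). Without background correction it was 4 other genes, and the 3 passed the FDR but not the fold criterion. Leaving out single arrays gave 0 to 159. Ror2 was called in 11 of 14 alternatives, probe Z00057813-1 in 10 and Zfp667 in 7, each with the same sign. These counts include the filter and the choices of probe. They also include the runs without the regression and with no minimum fold, which only relax the rule and could not remove a called gene. The cause of these shifts was not tested.

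The count for 6 minus 1 month (0) was 0 to 7 with single arrays left out. For 24 minus 16 months (0) it was 9 with the scanner signals, 9 with the deposited values, 2 in the fit of 14 arrays and 0 to 86 with single arrays left out. For 24 minus 1 month (26) it was 4 with the Cy3 channel alone, 80 in the fit of 14 arrays and 0 to 167 with single arrays left out. The diet comparison (9) gave 119 with the scanner signals, 67 with the deposited values, 0 with the Cy3 channel alone and 0 to 98 with single arrays left out. The organ comparison (11355) gave 8250 without the 1-month arrays, 10870 to 11783 with the other alternatives and 9616 to 11829 with single arrays left out. Of 32 lists 12 had a median above 0, against 7 with the scanner signals and 7 with the deposited values, and 9 to 17 with single arrays left out. The median of all genes also moved, from -0.0043 to -0.023 with the scanner signals and -0.0217 with the deposited values.

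Of 156 genes named, 58 moved under another signal or without the 1-month arrays, and 23 with a left-out array. To move was to change the sign of an uncalled difference. For the genes of the study named by no other rule, it was to shift by more than the SD within the classes. No called gene changed sign. The low ratio of Cy3 signal to background, 1.5 to 1.69, limits the dim probes.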
